A study of Homo sapiens with 18 samples.

Results

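The urogenital lineage transcription factors PAX2, PAX8, WT1, EMX2, LHX1, LHX9 and EYA1 were followed in a pair of ovarian carcinoma cell lines, as RNA and as open chromatin at their loci. The 7 genes were taken by name as factors of this lineage, with earlier results of these data known. PAX2 and LHX1 have a row in the count table of 23622 genes, so RNA is described for 2 of the 7, and the RNA of PAX8, WT1, EMX2, LHX9 and EYA1 was not analysed here. Open chromatin was examined at all 7 loci. RNA was sequenced from A2780, a cisplatin-sensitive human line, and from Acis (A2780cis), its resistant derivative, which received 1 µM cisplatin every 3 passages. Each line was either left untreated (control) or exposed to 200 µM cisplatin for 3 h, with 3 libraries in each of the 4 groups. Nothing in the sources ties the libraries to separate thaws or clones, so p-values measure the spread between these libraries, which may be technical. ATAC-seq, which marks open chromatin by transposase insertion, gave 1 peak list for each line and condition, built from 3 control or 2 cisplatin replicates.

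In the embryo, PAX2 and PAX8 are paired-domain factors that start the nephric duct and the kidney, and PAX8 remains a marker of Müllerian epithelium and of many ovarian carcinomas. WT1, a zinc finger protein, and the homeodomain proteins EMX2, LHX1 and LHX9 act in the early kidney, the gonadal ridge and the Müllerian duct. EYA1 is a phosphatase and coactivator that has no DNA-binding domain of its own and works with DNA-binding partner proteins.

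Total counts were 4130644 to 5072216 per library, and 15760 genes passed the filter on low counts and were tested. Among carcinoma markers, the mesenchymal filament gene VIM was abundant in all 4 groups, with group means of 1783 to 2007 normalized counts, on a scale that brings every library to the average size by edgeR's TMM factors. The epithelial markers differed in level. KRT18, an epithelial keratin, had means of 25.5 and 35.3 normalized counts in untreated and treated A2780 and of 143 and 146 in untreated and treated Acis. EPCAM had group means of 0.647 to 4.17 normalized counts and the keratin KRT8 of 4.05 to 17.2, and FOLR1 was at or below 3.88. MUC16, MSLN, KRT7, CDH1 and CLDN3 were not analysed here. Of 8 markers of blood, vessel, liver and glial cells, 1 (CD14, a monocyte gene) has a row, with 1 to 9 counts over the 3 libraries of a group.

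PAX2 RNA was abundant in A2780 and was read once in all 6 Acis libraries. PAX2 (ENSG00000075891) lies on the plus strand of chromosome 10 at chr10:100735396-100829944 in hg38, spans 94549 bp and has 6582 bp of exons in GENCODE 44. The A2780 control libraries held 1067, 1045 and 1084 normalized counts (1066 ± 19.6, SD, n = 3), and the A2780 cisplatin libraries held 867, 765 and 743 (792 ± 66.6, SD, n = 3). All 3 Acis control libraries held 0 counts, and the Acis cisplatin libraries held 1, 0 and 0. The groups of the 2 lines therefore did not overlap in either condition. In bulk RNA, fewer cells with the transcript and less transcript per cell cannot be told apart.

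Between the untreated lines, PAX2 was at least 979-fold lower in Acis, taking the 3247 counts of the A2780 control group against a floor of 3 counts over the Acis group, the number that a count of 0 is taken to allow. The call came from edgeR's quasi-likelihood test (adjusted p = 6.04e-25), and a gene counted as called when its adjusted p was under 0.05 and its log2 fold change was 1 or more in size. In that comparison 19.1% of all tested genes were called, 12.2% as lower and 6.99% as higher in Acis. The Acis control group held 13015139 counts in all. After cisplatin the lines held 2471 and 1 counts, a ratio of 2438 with a 95% counting interval of 437 to 96334 (edgeR adjusted p = 5.79e-24), beside 19.2% of tested genes called, 11.9% as lower and 7.28% as higher. Counting intervals and floors cover counting error only. Of the 7 members PAX2 alone was tested in this fit, and PAX2 was called in each of these line comparisons.

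Expressed as RPKM, which divides by exon length and by the TMM-scaled library size, the PAX2 level was 35.4 ± 0.652 in untreated A2780 and 26.3 ± 2.21 after cisplatin (SD, n = 3). The table medians in those groups were 3.13 and 3.31 RPKM. PAX2 therefore stood at the 95th percentile of the 23513 annotated genes of the table before treatment and at percentile 90.7 after it. On the same scale its level was 0 in untreated Acis and 0.0106 in treated Acis.

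Cisplatin lowered PAX2 RNA in A2780 by less than the fold threshold. The A2780 control counts were 1.34 times the A2780 cisplatin counts (95% counting interval 1.27 to 1.42), the highest cisplatin library lay below the lowest control library, and the log2 fold change was -0.43 with a standard error of 0.05 (edgeR adjusted p = 3.65e-08). At an adjusted p alone, 49.5% of tested genes passed in this comparison, 28.2% of all tested genes as lower, and 5.62% passed both thresholds. In Acis, 2.01% of genes were called after cisplatin. PAX2 held 1 and 0 counts there, which gives no fold, since both groups are under the floor (edgeR adjusted p = 0.531). The difference between the responses of the 2 lines had an adjusted p of 0.476 in the edgeR fit, in a comparison where 18.9% of genes passed, and with 1 count in Acis it could not be resolved at this depth. With LHX1 untested, edgeR and DESeq2 both called 0 members in the 2 cisplatin comparisons and the interaction, where PAX2 in A2780 alone had an unadjusted p under 0.05 in the edgeR fit.

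The decrease of PAX2 in A2780 was set beside genes of like length. Among the 2348 tested genes of 50 to 100 kb, the change in treated A2780 had a median of -0.22 on the log2 scale, with quartiles of -0.37 and -0.06, and 19.5% of them fell further than PAX2. Genes over 100 kb had a median of -0.40, and 45.8% of these 2621 genes lay below PAX2. The median was 0.21 for the 4886 genes under 10 kb. In Acis the medians ran from 0.09 for genes under 10 kb to -0.18 for genes over 100 kb. The part of gene length in the PAX2 value was not tested.

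**Figure D1:**
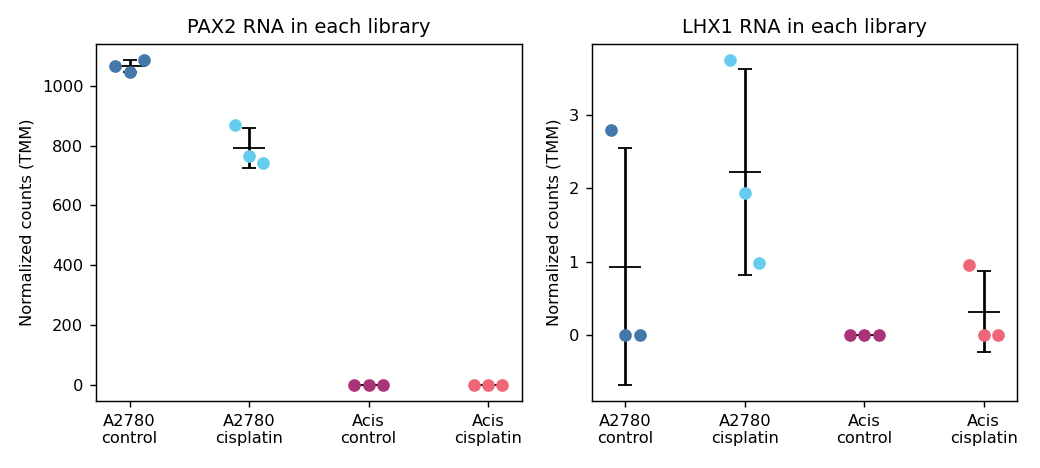
PAX2 (left) and LHX1 (right) in TMM-normalized counts on linear axes, with 1 point per library and the mean ± SD of 3 libraries per group. PAX2 lies between 1045 and 1084 in A2780 control, between 743 and 867 in A2780 cisplatin and at 0 or 1 count in Acis, while LHX1 never exceeds 4 counts.

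**Figure D2:**
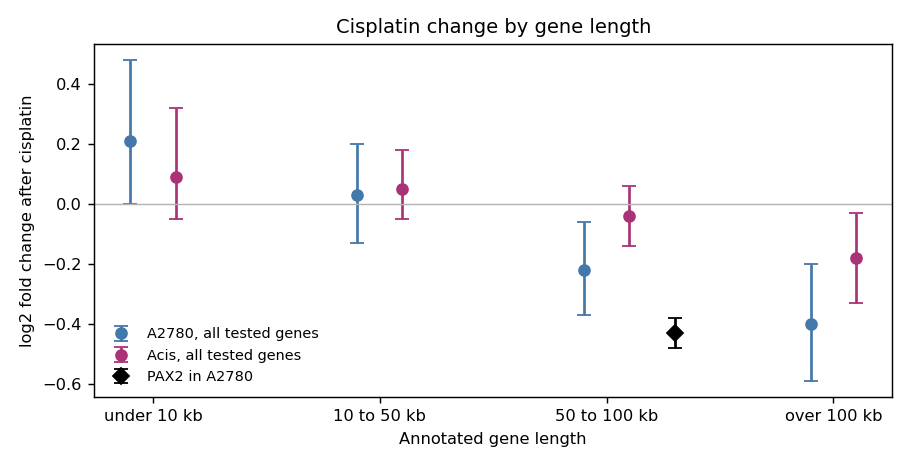
Median log2 fold change after cisplatin (points) and quartiles (bars) of all tested genes in 4 classes of annotated gene length, for A2780 and Acis, with PAX2 in A2780 and its standard error drawn in its own class. PAX2 at -0.43 lies below the lower quartile of its class, -0.37, and near the median of genes over 100 kb, -0.40.

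LHX1 (ENSG00000273706), a LIM-homeodomain factor of the nephric and Müllerian ducts, was close to the limit of detection. It lies at chr17:36936785-36944612 on the plus strand, spans 7828 bp and has 4913 bp of exons. The A2780 control libraries held 3, 0 and 0 counts, and the A2780 cisplatin libraries held 4, 2 and 1. The Acis control libraries held 0 counts each, and the Acis cisplatin libraries held 1, 0 and 0. LHX1 did not pass the filter and was not tested in the fit over 15760 genes. The counts of A2780 cisplatin were 2.28 times those of A2780 control after scaling, with a 95% counting interval of 0.521 to 13.7, which includes no difference. They were 6.91 times those of Acis cisplatin, with an interval of 0.887 to 311. With the filter left out, the edgeR adjusted p for LHX1 was 0.108 to 0.778 over the 5 comparisons. The LHX1 level was 0.0415 RPKM in A2780 control and 0.0989 in A2780 cisplatin, so on the same scale PAX2 was the more abundant of the pair in A2780.

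At the annotated starts, no peak was listed within 1 kb for any of the 7 members in any of the 4 lists. For comparison, 53.9% of 19970 protein-coding genes had such a peak in the list of untreated A2780 and 55.1% in that of treated A2780. The shares for untreated and treated Acis were 47.9% and 51.2%. PAX2, abundant in A2780, is thus among the genes without a listed peak at the first annotated start. Counting a peak within 1 kb of any annotated transcript start gave 9 of the 28 pairs of member and list. These were PAX2 in both A2780 lists, LHX9 in all 4 lists and EYA1 in 3 lists, without Acis control. Such a peak was listed for 61.9% and 63.3% of protein-coding genes in untreated and treated A2780, and for 55.1% and 58.7% in untreated and treated Acis.

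The PAX2 peak sits at an internal start 10186 bp into the gene. Its fold enrichment over the local background was 8.63 in A2780 control, with a -log10 q of 189, and 5.4 in A2780 cisplatin, with a -log10 q of 52.2. Neither Acis list has a peak there. The 250 bases before the first annotated start, where no list has a peak, and the 250 bases before the internal start are shown to set a start without a listed peak beside one with a peak, both from RefSeq on GRCh38.p14, plus strand, with every CG dinucleotide in capitals.
PAX2 first start, chr10:100735146-100735395: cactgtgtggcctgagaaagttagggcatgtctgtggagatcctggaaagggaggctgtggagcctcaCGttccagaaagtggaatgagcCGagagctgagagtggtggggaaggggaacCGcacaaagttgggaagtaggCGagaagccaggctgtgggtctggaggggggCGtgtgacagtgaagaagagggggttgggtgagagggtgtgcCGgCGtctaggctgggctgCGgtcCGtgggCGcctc
PAX2 internal start, chr10:100745332-100745581: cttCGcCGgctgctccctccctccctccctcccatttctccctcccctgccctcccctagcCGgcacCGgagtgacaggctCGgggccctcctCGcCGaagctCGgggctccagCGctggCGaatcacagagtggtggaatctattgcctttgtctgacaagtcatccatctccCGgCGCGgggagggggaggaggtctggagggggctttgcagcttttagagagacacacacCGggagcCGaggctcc

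The window of the internal start holds 15 CG dinucleotides at 66% G and C, and that of the first start holds 10 at 61.6%. Over 35116 RefSeq windows of the same length the medians were 11 CG dinucleotides and 58%. Neither PAX2 window holds the GC box GGGCGG, the TATA box TATAAA or the AP-1 site TGANTCA on either strand, which are found in 42.6%, 10.7% and 6.57% of all windows. RefSeq windows matched PAX2, PAX8, WT1, EMX2 and LHX9, with 10 starts in all.

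Within 50 kb of the PAX2 gene, open chromatin differed between the peak lists of the 2 lines. A2780 control had 9 peaks and A2780 cisplatin 10, while Acis control had 1 and Acis cisplatin 3. Of the 9 peaks of A2780 control, 7 overlapped a peak of A2780 cisplatin and 1 overlapped a peak of Acis control. Across the genome 57.9% of the A2780 control peaks overlapped an Acis control peak. Among 6932 protein-coding loci with at least 5 A2780 control peaks, 1.53% had a share of shared peaks as low as that of PAX2 or lower. With 1 list per condition no difference in peak number was tested, and the A2780 lists are longer, with 34979 and 32159 peaks against 24485 and 27321 in Acis.

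The one PAX2 peak found in all 4 lists lies downstream of the gene, 143218 bp from the start. It was enriched 7.94-fold and 11.3-fold in untreated and treated A2780, and 18-fold and 13.8-fold in untreated and treated Acis. A second downstream peak at 137009 bp, with fold enrichments of 11.6 and 8.47, was listed in A2780 alone. So was a peak at 82306 bp, inside the gene, with fold enrichments of 9.81 and 9.63. Upstream, a peak at -6197 bp had a fold enrichment of 8.21 in A2780 control, 5.38 in A2780 cisplatin and 5.66 in Acis cisplatin, and none was listed in Acis control. A peak at 8409 bp showed the same presence, with 5.28, 4.24 and 8.18. Both Acis cisplatin peaks were weak in significance, with a -log10 q of 7.06 and 17.1, where the median of that list was 41.4. PAX2 RNA was read once in that condition.

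Summit sequences of 151 bases are shown for the upstream PAX2 peak, absent from the Acis control list, for the downstream PAX2 peak of all 4 lists, and for the PAX8 peak of all 4 lists, taken from hg38 on the plus strand. Capitals mark GGGGGCGC, a core letter string that was chosen after these sequences had been read.
PAX2 upstream, chr10:100729143-100729293: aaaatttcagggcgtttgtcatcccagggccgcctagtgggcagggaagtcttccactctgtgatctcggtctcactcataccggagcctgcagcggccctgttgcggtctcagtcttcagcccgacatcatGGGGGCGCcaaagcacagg
PAX2 downstream, chr10:100878534-100878684: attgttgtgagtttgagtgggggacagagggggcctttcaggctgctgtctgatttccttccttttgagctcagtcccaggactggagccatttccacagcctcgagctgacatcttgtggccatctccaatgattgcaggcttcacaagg
PAX8 intragenic, chr2:113249237-113249387: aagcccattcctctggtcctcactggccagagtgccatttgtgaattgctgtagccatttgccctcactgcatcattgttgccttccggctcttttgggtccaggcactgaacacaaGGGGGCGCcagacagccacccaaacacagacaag

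The string GGGGGCGC, searched on both strands, is in 3.27% to 3.67% of the summit windows of the 4 lists and in 5.34% of the upstream windows. It is in 2 of the 3 summit windows shown, and a match is a description of letters, not of a bound factor.

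**Figure D3:**
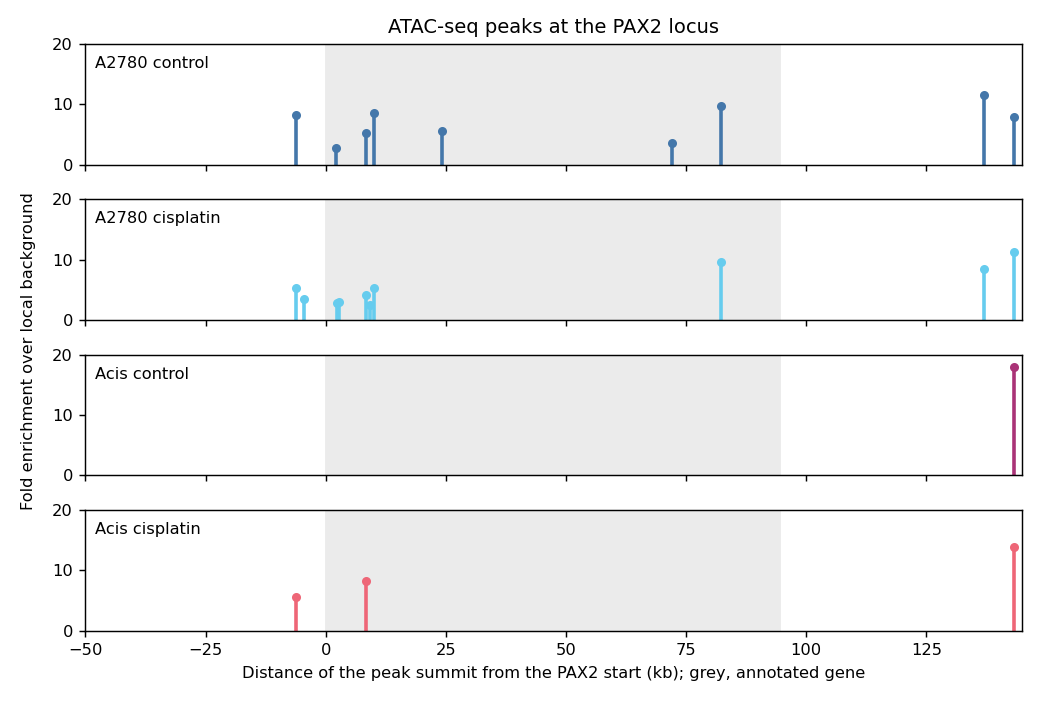
ATAC-seq peaks at the PAX2 locus in the 4 lists, each drawn at the distance of its summit from the annotated start (kb), with its fold enrichment as the height and the annotated gene in grey. A2780 control has 9 peaks and A2780 cisplatin 10, while Acis control has 1, downstream of the gene, and Acis cisplatin 3.

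The other 6 loci held few peaks. PAX8 (chr2:113215997-113278921, minus strand) had 3 peaks in each A2780 list, 2 in the list of untreated Acis and 3 in that of treated Acis. Its peak inside the gene at 29611 bp from the start was in all 4 lists, with fold enrichments of 11, 10, 12.3 and 9.59. LHX1 had 1 peak in each list, which lies at the start of the neighbouring gene AATF. Its fold enrichments were 19.3 and 11.9 in untreated and treated A2780 and 17.8 and 20 in untreated and treated Acis.

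LHX9 (chr1:197911902-197935478, plus strand) had 3, 3, 2 and 2 peaks in the same order of lists. The peak at its internal start, 4091 bp into the gene, was in all 4 lists with fold enrichments of 13.3, 8.83, 9.55 and 10.4, and the peak at -9076 bp lies at the start of C1orf53. EMX2 (chr10:117542445-117549546, plus strand) had 1 peak, at -45699 bp, in both A2780 lists and in neither Acis list, with fold enrichments of 7.84 and 9.2. EYA1 (chr8:71197433-71592025, minus strand) had 1 peak deep in the gene in every list but Acis control. WT1 (chr11:32387775-32435564, minus strand) had 3 peaks, all in the A2780 cisplatin list, with a -log10 q of 16.2, 16.4 and 8.36, below the list median of 34.1.

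Over the 7 loci there were 18 peaks in the untreated A2780 list and 22 in the treated one, against 6 and 10 in Acis. PAX2 supplied 9 of the 18 and 1 of the 6. Of the 18 A2780 control peaks 6 overlapped an Acis control peak, and all 6 Acis control peaks overlapped an Acis cisplatin peak. At least 1 peak in a locus of this kind was found for 90.7% and 90.9% of protein-coding genes in untreated and treated A2780 and for 85.9% and 87.8% in Acis.

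**Figure D4:**
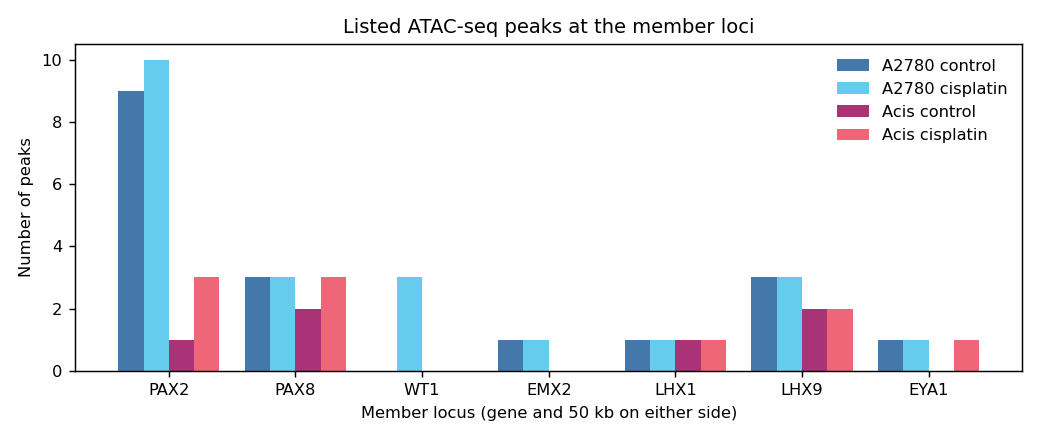
Number of listed ATAC-seq peaks within 50 kb of each member gene, for the 4 peak lists, on a linear axis from 0. PAX2 has 9 and 10 peaks in A2780 and 1 and 3 in Acis, and the other members have 0 to 3.

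The tested genes nearest to PAX2 on each side were read for comparison. They were picked by position after their values had been seen, since the rule of 100 kb gave none with a row. Downstream, SLF2, which acts with the SMC5/6 complex in genome stability, was lower in Acis, going from 1507 ± 26.5 to 691 ± 23.8 normalized counts (SD, n = 3) in the untreated lines, with a log2 fold change of -1.12 (edgeR adjusted p = 1.17e-19). The low lncRNA ENSG00000272572 beside it changed by -1.48 on the log2 scale (edgeR adjusted p = 0.000829). Upstream, HIF1AN, an asparagine hydroxylase that modifies HIF1A, changed by -0.38 (edgeR adjusted p = 9.03e-08), within the fold threshold. NDUFB8, a subunit of respiratory complex I, changed by -0.18, which did not pass (edgeR adjusted p = 0.325). The downstream pair starts 177343 and 177567 bp from the PAX2 start, and the upstream pair lies at -205396 and -206324 bp. Beside LHX1, AATF changed by 0.19 (edgeR adjusted p = 0.000897), and beside LHX9, C1orf53 changed by 0.26 without passing the test (edgeR adjusted p = 0.528).

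The 3 genes whose profile over the 12 libraries was most like that of PAX2 had a Pearson r of 0.9997 on log2 CPM values. These were CNNM1, on the same chromosome, HDAC9, a class IIa histone deacetylase, and the lncRNA ENSG00000251095. In untreated A2780 their means were 256, 755 and 324 normalized counts in that order, and in untreated Acis CNNM1 was at least 235-fold, HDAC9 at least 693-fold and ENSG00000251095 at least 298-fold lower. Each of the 3 held 0 counts in Acis control and 1 count in the same Acis cisplatin library as PAX2. In treated A2780 their means were 198, 501 and 220 normalized counts. These libraries were all used to choose the 3 genes, so their values are given as a description, with no test. Of 13855 genes compared, 442 (3.19%) had an r of at least 0.99, so the 3 are the top of a long list.

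Other genes were read from 9 lists with 122 genes, 76 of them with a row and 49 tested. Of these lists 7 hold urogenital genes (102 genes, 45 tested) and 2 hold markers of carcinoma and of other cell types (20 genes, 4 tested). The lists were chosen with earlier results of these data known, so the shares called below describe these genes and are no evidence of an excess. Between the untreated lines, 10 of the 49 were called higher and 21 lower in Acis (63.3% called, beside 19.1% of all tested genes), and without the marker lists 9 of the 45 were higher and 19 lower (62.2%). After cisplatin the line comparison called 10 higher and 20 lower (61.2%, beside 19.2%). The treated groups were contrasted there, but both comparisons came from the same fit over all libraries and compare the same lines. The similar shares are therefore no independent repeat. Over all tested genes the median change between the untreated lines was -0.01 on the log2 scale.

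Among 9 tested paralogs of the members, 2 rose and 5 fell in Acis, with a median of -3.35. EYA4, a paralog of EYA1, held 800, 779 and 774 normalized counts in A2780 control and 0 in every Acis control library. It was at least 722-fold lower there (edgeR adjusted p = 1.43e-25). EYA3, also a paralog of EYA1 and named after its values were seen, was not called. Its means were 496 normalized counts in A2780 control and 570 in Acis control, a log2 fold change of 0.20. The LIM-homeodomain gene LHX8 went from 478 ± 15.6 to 0.709 ± 0.614 and ISL1 from 281 ± 23.7 to 4.69 ± 2.4 (SD, n = 3). In the other direction LMX1B rose from 2.35 ± 2.06 to 230 ± 35.3 and LHX6 from 95.2 to 259 normalized counts. The other 2 that fell, named after their values were seen, were PAX9, from 89.4 to 2.15, and PAX6, from 23.7 to 2.12.

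Of 12 tested partner proteins, 1 rose and 5 fell, with a median of -0.21. Those that fell included SIX2, SIX3, SIX4 and SIX6, DNA-binding partners of EYA proteins, of which SIX2 and SIX6 were named after their values were seen. SIX4 changed by -1.22 on the log2 scale, from 734 ± 10.1 to 315 ± 16.7 normalized counts (SD, n = 3), and SIX3 went from 125 to 0, at least 115-fold lower. The partner that rose was CITED2, a CBP/p300-binding coactivator that acts with WT1, with 50.4, 54.8 and 65.1 normalized counts in A2780 control and 722, 730 and 695 in Acis control (log2 fold change 3.66, edgeR adjusted p = 3.4e-25).

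Among 6 tested regulators of the nephric duct and kidney, 4 fell and none rose, with a median of -2.44 when floors are used. IRX3 changed by -4.56 and FOXC1 by -1.08 on the log2 scale, and TBX18 went from 38.9 to 0, at least 35.9-fold lower. Of 6 tested gonad and Müllerian regulators, 2 rose and 2 fell, with a median of -0.12. SOX9, a factor of testis differentiation also active in kidney and other epithelia, went from 276 ± 28.5 to 0 (at least 253-fold lower), and FOXL2, its ovarian counterpart, from 133 ± 3.01 to 0 (at least 122-fold lower). NR2F2, a nuclear receptor of the mesenchyme, rose by 1.58. None of the 4 Müllerian HOXA genes was analysed here.

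Among 10 tested signals 3 rose and 2 fell, with a median of 0.34. BMP7 rose by 2.39 and the kidney receptor RET by 1.66 on the log2 scale. The receptor FGFR2 rose from 1 to 170 counts, a ratio of 188 with a 95% counting interval of 33.3 to 7464, and the ligand FGF20 fell from 204 counts to 1, a ratio of 185 with an interval of 32.8 to 7326. The list of known targets of PAX2, PAX8 or WT1 held 2 tested genes. PODXL, a podocyte sialomucin, rose by 3.44 and IGF1R changed by -2.15. Which of these factors acts on either gene was not tested. Among 4 tested carcinoma markers, KRT18 rose by 2.49 and its keratin partner KRT8 fell by 1.95 on the log2 scale (edgeR adjusted p = 0.000569). The N-cadherin gene CDH2 changed by -3.20, and VIM by -0.02 (edgeR adjusted p = 0.645).

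Few of the 49 genes passed the fold threshold after cisplatin. In A2780 1 was called (2.04%, beside 5.62% of all tested genes), and in Acis 0 (beside 2.01%) by edgeR and by DESeq2. In Acis 21 of the 49 had an unadjusted p under 0.05 in the edgeR fit. No share over all tested genes is given at that threshold, so the number shows no excess. At an adjusted p alone 27 of the 49 passed in A2780 (beside 49.5% of all tested genes) and 14 in Acis (beside 21.8%). The gene called in A2780 was FGF8, a fibroblast growth factor, named after its values were seen. It had 3.22 ± 2.06 normalized counts in A2780 control and 12.9 ± 2.29 in A2780 cisplatin (log2 fold change 1.93, edgeR adjusted p = 0.000228). These are low levels, from 10 and 40 counts over the libraries of each group. In Acis FGF8 went from 5.44 ± 1.09 to 9.44 ± 0.691 without passing (log2 fold change 0.78, edgeR adjusted p = 0.211). Its difference between the lines did not pass either (edgeR adjusted p = 0.233). At an adjusted p alone, EYA4 fell in A2780 by 0.71 on the log2 scale (edgeR adjusted p = 1.97e-12) and LHX8 by 0.32 (1.83e-05), while FOXL2 rose by 0.73 (5.64e-08).

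**Figure D5:**
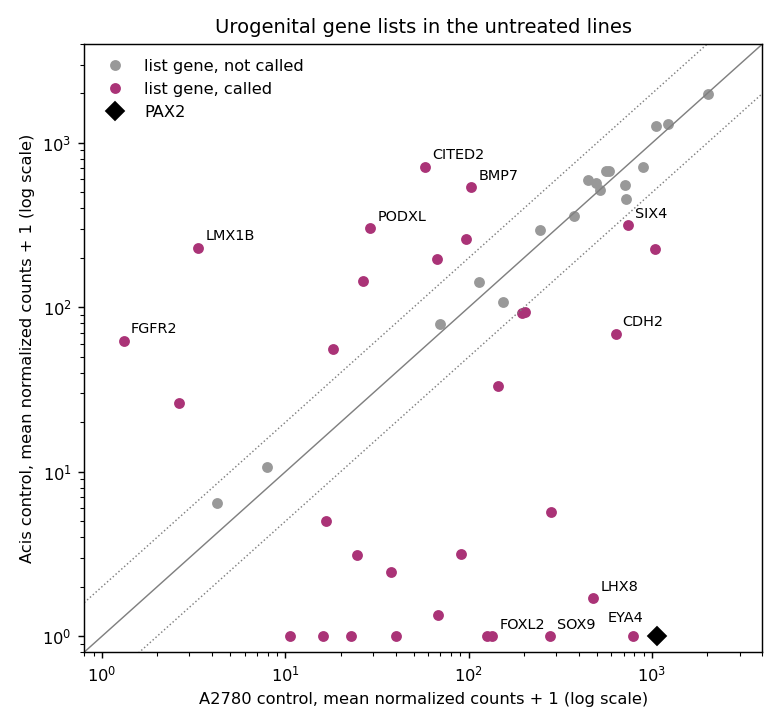
Mean normalized counts plus 1 of the 49 tested genes of the urogenital and marker lists in Acis control against A2780 control, on log axes, with the line of equality, dotted lines at a 2-fold difference and PAX2 as a diamond. Called genes lie on both sides, with 10 above and 21 below, and PAX2, EYA4, SOX9 and FOXL2 lie at 0 counts in Acis.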

How the data were processed

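Count and peak tables of the A2780 and Acis lines were used. The 2 XR-seq samples were not analysed here. According to the methods of the authors, stranded ribodepleted RNA reads were aligned with STAR 2.7.3, duplicates were removed with Picard, and raw counts per gene were made with HTSeq 0.11.1 in reverse strand mode and deposited without normalization. The table lists genes with at least 10 counts in total. For ATAC-seq, reads were trimmed with cutadapt 1.15 and aligned with Bowtie2 2.4.1, and MACS2 peaks that overlapped between replicates were deposited by the authors with a fold enrichment ratio, -log10 p and q values and a MACS2 score, which was not used. Each of these was computed by MACS2 as deposited by the authors. Whether reads were shifted for the transposase is not given in the sources used here.

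Counts were analysed with edgeR 4.0.16 in R 4.3.3, with TMM normalization, the default filter (15760 genes) and a quasi-likelihood model with 4 groups, 12 libraries and thus 8 residual degrees of freedom. Calls required a Benjamini-Hochberg adjusted p under 0.05 and a log2 fold change of 1 or more in size, and the adjusted p alone for the interaction. DESeq2 1.42.0 was an alternative. Library totals were 4130644 to 5072216, so genes with few counts have wide errors. On simulated counts for 15760 genes, 91.1% of 101 genes changed 2-fold between the untreated lines passed an adjusted p under 0.05. Of all genes that passed, 3.68% were false there, and 6.09% for cisplatin in Acis. The fold threshold was not applied to the simulated counts. Some replicates lay closer together than counting noise, in A2780 control all 3 pairs. Duplicate removal is 1 possible cause, which was not tested. All libraries were kept, and 1 alternative merged the closest pair. Replicate numbers showed no clear pairing of the samples (correlations of -0.205 to 0.282), which does not exclude a weak one. Promoters were 1 kb on either side of the annotated start in GENCODE 44 and loci the gene with 50 kb on either side, with overlap of at least 1 bp.

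Named genes are the 7 members, table genes within 100 kb, the 3 genes most like PAX2, and up to 3 called genes per direction of each list with at least 20 normalized counts. Other names are marked or are list or marker genes. Members and lists were chosen with earlier results of these data known. The alternatives covered scaling, filtering, DESeq2, samples in the fit, the replicate block, left-out libraries, the merged pair and the peak thresholds. Some genes of the lists are counted but not reported here by name.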

Additional observations from a re-analysis of the deposited data

Results flagged for a closer look

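The responses of 6 of the 49 tested list genes to cisplatin differed between the lines in the interaction term of the edgeR fit (12.2%, beside 18.9% of all tested genes). Differences are given on the log2 scale as the Acis effect minus the A2780 effect, and ISL2, PAWR, SALL1 and OSR2 were named after their values were seen. ISL2, a LIM-homeodomain paralog of the members, had a difference of -0.91 (edgeR adjusted p = 7e-05), with 113 ± 10.3 and 215 ± 31.6 normalized counts in untreated and treated A2780 and 142 ± 2.9 and 144 ± 11.2 in Acis. CITED2, the coactivator that acts with WT1, had a difference of -0.62 (edgeR adjusted p = 0.000923). It went from 56.8 ± 7.56 to 86.6 ± 1.4 normalized counts in A2780 and from 716 ± 18 to 715 ± 9.5 in Acis. PAWR, a protein that binds WT1, had a difference of 0.42 (edgeR adjusted p = 0.000905), with 520 ± 22.9 and 371 ± 19.2 in A2780 and 518 ± 41.5 and 492 ± 27.3 in Acis.

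SIX4, a partner of EYA proteins, had a difference of 0.30 (edgeR adjusted p = 0.00451), with 734 ± 10.1 and 749 ± 20.5 normalized counts in A2780 and 315 ± 16.7 and 395 ± 21.6 in Acis. SALL1 had a difference of 0.52 (edgeR adjusted p = 0.04) and OSR2 of 0.40 (edgeR adjusted p = 0.0276). Among genes near a member, SLF2 beside PAX2 had a difference of 0.30 (edgeR adjusted p = 0.000409), HIF1AN of 0.19 (edgeR adjusted p = 0.0437), and AATF beside LHX1 of -0.19 (edgeR adjusted p = 0.0399). The differences of SIX4, SALL1, OSR2, HIF1AN and AATF did not pass with DESeq2. Leaving out 1 library ended the edgeR call of SALL1 in 7 of 12 cases, of OSR2 in 4, of HIF1AN in 7 and of AATF in 9. SD is over 3 libraries in each group.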

How the results depend on the processing

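Of 118 counts and levels recomputed under the alternatives 106 stayed within 1.5 times the main value or within the spread of the replicates, and 12 moved. Promoter peaks at members went from 0 to 2 with a window of 2500 bp, both at PAX2 in A2780, and to 9 with any annotated transcript start. With the annotated gene alone in place of its flanks, the loci held 9, 9, 2 and 4 peaks in A2780 control, A2780 cisplatin, Acis control and Acis cisplatin, with 2 peaks shared between the control lists, 4 between the cisplatin lists, 7 between the A2780 lists and 2 between the Acis lists. Per kb of gene span instead of exon, the PAX2 level was 2.46 in A2780 control and 1.83 in A2780 cisplatin. Each of these follows from the wider or narrower window, from the starts used or from the length. The number of members called was the same in every alternative, among them the replicate block, which left PAX2 at -0.43 after cisplatin in A2780 (adjusted p = 1.86e-08). That decrease ranged from -0.46 to -0.31 over the other alternatives and from -0.5 to -0.38 with 1 library left out. The line difference of PAX2 stayed called throughout. Of 1188 recomputed values of single genes, 1147 kept direction and call and 41 kept the direction alone. These 41 are interactions of SIX4 (with DESeq2, 0.28, adjusted p = 0.05), SALL1, OSR2, HIF1AN and AATF. Of the 49 list genes DESeq2 called 3 for the interaction, against 6. With total counts as the scaling, the median of all genes after cisplatin in A2780 moved to 0.104. The fit on the compared groups alone gave no interaction and no value for PAX2 after cisplatin in Acis. Peak lists give 1 value per condition, so replicate error of the peaks is unknown here.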
